A study of Homo sapiens with 16 samples.

Results

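Cytosolic ribosomal protein genes encode the proteins of the large (60S) and small (40S) subunits of the ribosome. They were taken as the protein-coding RefSeq genes on chromosomes 1 to 22 whose symbol starts with RPL or RPS followed by a digit, plus RPLP0, RPLP1, RPLP2 and RPSA, without the RPS6K kinases. The rule gave 84 of 19126 protein-coding genes. Of these, 44 were grouped as 60S genes and 30 as 40S genes, together the 74 core genes. A further 7 were grouped as like-named paralogs (RPL10L, RPL22L1, RPL26L1, RPL39L, RPL3L, RPL7L1 and RPS27L). RPL36AL, by its name like the X-linked RPL36A, was kept among the 60S genes. Another 2 are readthrough symbols that run into a neighbouring gene (RPS10-NUDT3 and RPL17-C18orf32), and RPS19BP1 is by its name a binding protein of RPS19. A further 7 genes of the same naming lie on the X or Y chromosome and were outside the rule.

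The data were lists of DNA regions held by DNA topoisomerase II alpha (TOP2A) in K562 cells, an established human line from chronic myeloid leukaemia. Cells were given vehicle (0.05% DMSO, for 1 or 4 h, not tied to single libraries) or a TOP2 poison in the same vehicle: 25 µM etoposide, 50 µM genistein or 2 µM mitoxantrone for 1 h, or 8 µM p-benzoquinone for 4 h. TOP2A was immunocaptured from sonicated lysate and the DNA released from it was sequenced in 14 libraries beside 2 input libraries. Each treatment had 1 list pooled by the authors, which the sample descriptions tie to pre-amplified libraries: 3 each for DMSO and etoposide, and 2 each for p-benzoquinone and genistein. The mitoxantrone list was tied by treatment to its 1 library. On chromosomes 1 to 22 the lists held 296907 regions for DMSO, 347383 for p-benzoquinone, 395617 for genistein, 173814 for etoposide and 193147 for mitoxantrone, with a median width between 150 and 160 bp. The deposited value of a region, whose unit is not stated, had its lowest at 3.87 in mitoxantrone, 3.72 in genistein, 1.82 in p-benzoquinone and etoposide, and 1.84 in DMSO. Pooled lists carry no replicate values, so no p-value was computed, and every interval below covers only counting error. Library depths are unknown, no RNA was measured, and the cell line was therefore taken from the labels alone.

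Ribosomal protein genes are among the most strongly transcribed genes of growing cells, and their output is matched so that both subunits can be built in step. Most of their transcripts begin with a terminal oligopyrimidine (TOP) tract, a cytosine followed by a run of pyrimidines, through which mTOR signalling controls their translation. Loss of 1 copy of several of them causes Diamond-Blackfan anaemia, a failure of red cell formation, and loss of RPS14 underlies the anaemia of the 5q- syndrome. TOP2A relieves the supercoiling and tangling that transcription and replication produce by cutting both strands of a duplex. Etoposide and mitoxantrone are anticancer drugs, genistein is a soy isoflavone and p-benzoquinone is a metabolite of benzene, and each raises the amount of enzyme trapped on cut DNA.

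RefSeq start sites (GRCh38.p14) were found for 65 of the 84 genes. At the listed start nearest the 5′ end of the gene, 46 of the 65 had a C (70.8%), against 11.3% of 15101 protein-coding genes. In 41 the C began a run of at least 5 pyrimidines (63.1%, exact binomial 95% interval 50.2 to 74.7), against 4.58%. With any listed start allowed, 44 had such a run (67.7%), against 6.22%. At the start nearest the 5′ end, the run was 6 bases long in the median gene and reached 16. The following stretches of 30 bases, from 10 before to 20 from the start on, are shown because they put this TOP tract beside the genes that the results below name. Capitals mark the pyrimidines that run on from the listed start nearest the 5′ end of the gene, where RPL11 had none.
RPS19 (chr19:41860245-41860274, plus strand): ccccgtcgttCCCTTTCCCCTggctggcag
RPS14 (chr5:150449720-150449749, minus strand): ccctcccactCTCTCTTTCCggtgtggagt
RPL3 (chr22:39319604-39319633, minus strand): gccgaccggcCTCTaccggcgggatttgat
RPL37A (chr2:216498834-216498863, plus strand): gcgtctcttcCTTTCTgggctcggacctag
RPL34 (chr4:108620566-108620595, plus strand): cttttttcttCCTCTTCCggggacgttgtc
RPL11 (chr1:23691769-23691798, plus strand): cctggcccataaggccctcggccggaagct

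The promoters of RPL34 and RPL37A are printed next, from 250 bases before to 10 bases from the start on, because in these genes regions of at least 2 lists overlapped the start window (see the values further on). Both encode 60S proteins. Capitals mark bases inside regions of at least 2 lists, 67 in RPL34 and 131 in RPL37A.
RPL34 (chr4:108620326-108620585, plus strand): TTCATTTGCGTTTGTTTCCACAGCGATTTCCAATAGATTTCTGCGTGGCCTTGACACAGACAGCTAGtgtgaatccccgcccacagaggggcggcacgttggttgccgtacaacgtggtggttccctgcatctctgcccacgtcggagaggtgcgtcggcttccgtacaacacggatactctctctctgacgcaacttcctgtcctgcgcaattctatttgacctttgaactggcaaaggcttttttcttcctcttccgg
RPL37A (chr2:216498594-216498853, plus strand): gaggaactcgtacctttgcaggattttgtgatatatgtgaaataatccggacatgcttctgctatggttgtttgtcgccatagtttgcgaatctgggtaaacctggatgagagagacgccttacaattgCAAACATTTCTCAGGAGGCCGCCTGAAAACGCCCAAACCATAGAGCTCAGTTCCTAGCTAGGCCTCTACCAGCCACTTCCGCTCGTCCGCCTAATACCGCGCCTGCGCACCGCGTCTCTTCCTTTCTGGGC

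In the 300 bases around the start (250 before, 50 from it on), 4 motifs were searched on both strands. The ETS motif CCGGAAG was in 22 of the 65 ribosomal protein promoters (33.8%, 22.6 to 46.6), against 14.3% of all 15101. The YY1 motif AAGATGG, which can share its AAG with the ETS motif, was in 9 (13.8%) against 6.28%. The CGCG motif CTCGCGA was in 13 (20%) against 3.24%, and TATAAA was in 7 (10.8%) against 9.83%. Median GC content of the window was 59.3% in the ribosomal protein genes and 62.7% over all genes.

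The first comparison asks how many TOP2A cleavage regions lay in the bodies of ribosomal protein genes. The genes are short, with a median length of 5025 bp against 24476.5 bp for all protein-coding genes, so counts are given per length. Over the 5 lists, 537 distinct regions had their centre in a ribosomal protein gene or its 2 kb flanks, 366 of them in a body. Per length, the numbers in their bodies were near those of other protein-coding genes. DMSO put 71 regions into them, or 1.04 per 10 kb, against 1.16 in all gene bodies, a ratio of 0.896 (exact Poisson 95% interval 0.700 to 1.13). Etoposide put 39 regions there, 0.572 per 10 kb against 0.670, a ratio of 0.854 (0.607 to 1.17). Genistein put 82 regions there, 1.20 per 10 kb against 1.51, a ratio of 0.799 (0.635 to 0.992). Those 3 ratios were below 1, and the genistein interval alone ended short of it. That interval spanned 1 with the 74 core genes alone (0.820, 0.623 to 1.06), without RPS10-NUDT3 (0.819, 0.636 to 1.04), or with any overlap in place of the region centre (0.856, 0.686 to 1.05). Mitoxantrone put 54 regions there, 0.793 per 10 kb against 0.735, a ratio of 1.08 (0.810 to 1.41). For p-benzoquinone the 120 regions came to 1.76 per 10 kb against 1.42, a ratio of 1.24 (1.03 to 1.49).

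Gene length moved with these ratios. Set against the 7198 protein-coding genes between 1621 and 18382 bp long, the 5th and 95th percentile of the ribosomal protein genes, the genistein ratio was 0.992 (0.789 to 1.23) and the p-benzoquinone ratio 1.03 (0.853 to 1.23). Both then spanned 1. The genes of this range are still longer than the ribosomal protein genes, with a median of 8242 bp against 5025 bp. Ribosomal protein genes outside the range, RPS10-NUDT3 among them, stayed in the count. Length was thus matched only in part. The same comparison gave 0.899 for DMSO, 0.95 for etoposide and 1.30 (0.977 to 1.70) for mitoxantrone.

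**Figure D1:**
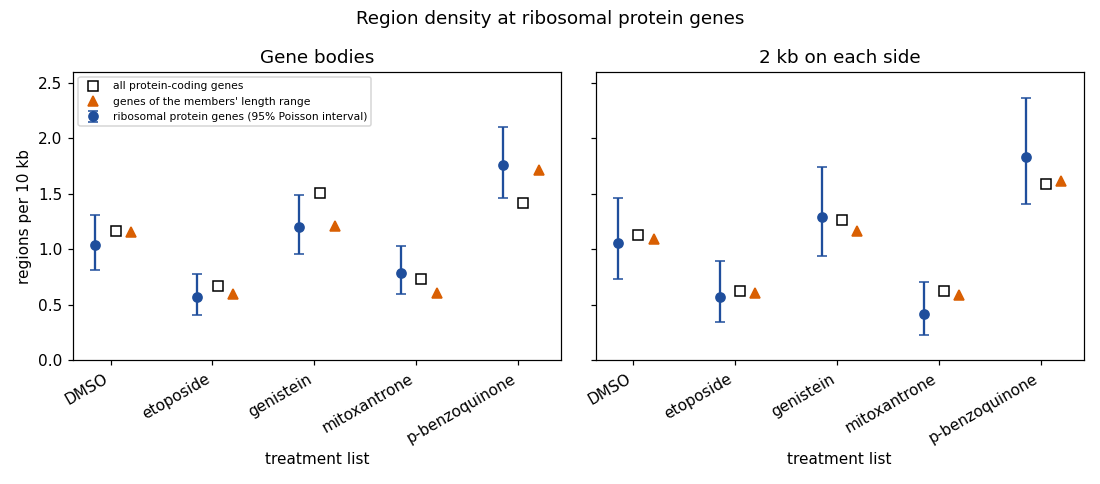
Regions per 10 kb in the bodies of the 84 ribosomal protein genes (left) and in the 2 kb on each side (right), by treatment list. Circles with bars are the ribosomal protein genes with their exact Poisson 95% interval, squares all 19126 protein-coding genes and triangles the 7198 genes of the same length range; in bodies the p-benzoquinone circle (1.76) lies above the square (1.42) and close to the triangle (1.71).

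Counted by gene, a body region was present in 36 of the 84 genes in DMSO (42.9%, exact binomial 95% interval 32.1 to 54.1), against 75.3% of all genes and 55.3% of genes of the same length range. The numbers were 26 in etoposide (31.0%, against 65.4% of all genes and 37.5% of the length range) and 45 in genistein (53.6%, against 76% and 55.9%). They were 33 in mitoxantrone (39.3%, against 65.6% and 37.4%) and 53 in p-benzoquinone (63.1%, against 79.9% and 65.7%). Each share was far below that of all genes, which are longer, and closer to that of the length range. The DMSO interval ended below the 55.3% of the length range, and the intervals of the other lists held its share. With the flanks included, the genes with a region were 56 in DMSO (66.7%, against 81.9% of all genes and 68.0% of the length range). They were 69 in p-benzoquinone (82.1%, against 86.1% and 77.4%) and 62 in genistein (73.8%, against 82.8% and 69.3%). In etoposide they were 37 (44.0%, against 71.7% and 50.0%) and in mitoxantrone 45 (53.6%, against 71.9% and 49.6%). In 11 genes (13.1%) no list had a body region, against 11.8% of all genes and 17.0% of the length range. Summed over the lists, the median ribosomal protein gene had 3 body regions, against 12 for all genes and 4 for the length range.

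**Figure D2:**
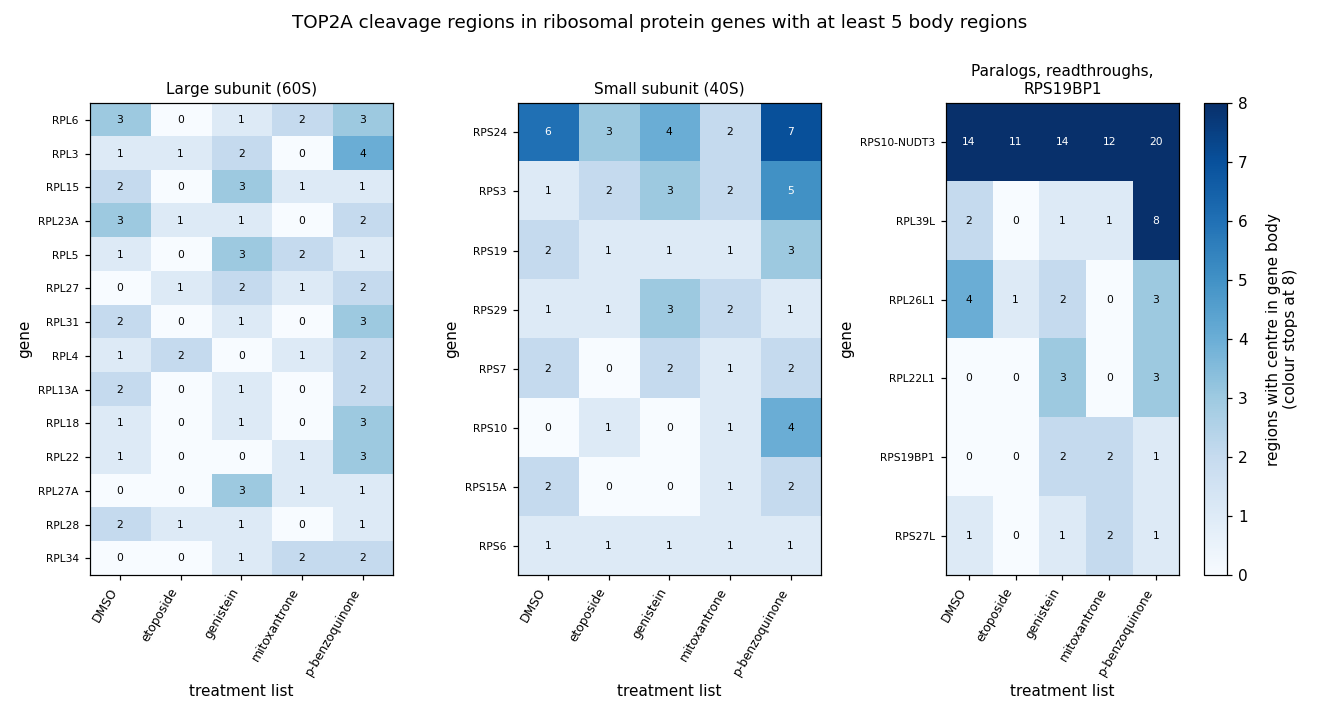
Number of regions with their centre in the gene body (cells) in each treatment list (columns), for the 28 ribosomal protein genes with at least 5 body regions over the lists (rows), in 3 panels for 60S genes, 40S genes and the other genes of the rule. Darker cells hold more regions and colour stops at 8; RPS10-NUDT3 with 11 to 20 regions a list stands above the other rows.

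Few genes held many of these regions. The readthrough symbol RPS10-NUDT3 spans 138876 bp on chromosome 6 (34287194 to 34426069), most of it the NUDT3 gene, and had 14 body regions in DMSO, 20 in p-benzoquinone, 14 in genistein, 11 in etoposide and 12 in mitoxantrone. The 6 body regions of RPS10 itself are counted in it as well. Among the 40S genes RPS24, whose product is needed for 18S rRNA maturation and which is mutated in Diamond-Blackfan anaemia, had 6 regions in DMSO, 7 in p-benzoquinone, 4 in genistein, 3 in etoposide and 2 in mitoxantrone. It is long for its kind, 22944 bp (chromosome 10, 78033863 to 78056806). RPS3, a 40S protein at the mRNA entry channel, had 1 region in DMSO, 5 in p-benzoquinone, 3 in genistein, 2 in etoposide and 2 in mitoxantrone over 22785 bp. RPS19, the gene most often mutated in Diamond-Blackfan anaemia, had 2 in DMSO, 1 each in etoposide, genistein and mitoxantrone, and 3 in p-benzoquinone. With RPS6, the 40S protein phosphorylated by S6 kinase, and RPS29, these were the genes with a body region in every list, 6 of the 84. The share of all protein-coding genes with a body region in every list was not counted, so this number is no result about ribosomal protein genes. RPS6 had exactly 1 body region in each list over 4522 bp.

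In the 60S genes no single gene led in this way. RPL6 had 3 body regions in DMSO, 3 in p-benzoquinone, 1 in genistein, 0 in etoposide and 2 in mitoxantrone. RPL3, which reaches towards the peptidyl transferase centre, had 1 in DMSO, 4 in p-benzoquinone, 2 in genistein, 1 in etoposide and 0 in mitoxantrone. RPL23A, near the exit of the nascent chain tunnel, had 3 in DMSO, 2 in p-benzoquinone, 1 in genistein, 1 in etoposide and 0 in mitoxantrone, and with its flanks it was the densest gene of those with at least 5 regions, at 14.3 regions per 10 kb over the 5 lists. RPL41 had 11.2, RPL10A 11.0 and RPL18 10.2. RPL5 and RPL11, which bind MDM2 together with 5S rRNA when ribosome assembly fails, differed in number: RPL5 had 1 body region in DMSO, 1 in p-benzoquinone, 3 in genistein, 0 in etoposide and 2 in mitoxantrone, whereas RPL11 had 1 in p-benzoquinone and 0 in the other lists. RPL5 is the longer of these genes, 9939 bp against 5057 bp for RPL11, and its body regions also lie inside the overlapping DIPK1A gene. RPL23 had 1 in genistein and 0 elsewhere. RPS14, the 5q- syndrome gene, had 1 in etoposide, 3 in p-benzoquinone and 0 elsewhere. In 5 genes there was no region in body or flanks under any treatment (5.95%, against 7.64% of all genes), among them RPS27, RPS18 and RPS9 of the 40S subunit, and RPL10L, an intronless paralog expressed in testis.

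Between the subunits the densities were close. The 44 60S genes had 1.08 body regions per 10 kb in DMSO (0.723 to 1.55) and the 30 40S genes 1.04 (0.646 to 1.60). In p-benzoquinone the values were 1.75 (1.29 to 2.33) and 1.84 (1.30 to 2.54). The 60S and 40S values were 0.484 and 0.646 for etoposide, 1.15 and 1.34 for genistein, and 0.782 and 0.696 for mitoxantrone. Their intervals overlapped in each list. The 7 like-named paralogs had 7, 3, 8, 5 and 18 body regions in DMSO, etoposide, genistein, mitoxantrone and p-benzoquinone, and RPL39L, a paralog of the X-linked RPL39, had 8 of the 18. The 19 ribosomal protein genes listed for Diamond-Blackfan anaemia had 1.36 per 10 kb in DMSO (0.853 to 2.06), 2.23 in p-benzoquinone (1.56 to 3.08), 1.49 in genistein, 0.495 in etoposide and 0.866 in mitoxantrone, and 2 of the 19, among them RPS27, had none.

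Other genes of the translation machinery, from fixed lists, had body densities in the same range. The 16 elongation and other TOP genes had 0.856 per 10 kb in DMSO, 1.31 in p-benzoquinone, 1.54 in genistein, 0.705 in etoposide and 0.982 in mitoxantrone. The 25 ribosome assembly factors had 1.02, 1.27, 1.27, 0.697 and 0.670 in the same order of lists. The 14 RNA polymerase I subunits, whose enzyme makes the ribosomal RNA, had 1.01, 1.41, 1.28, 0.683 and 0.573. The 77 mitochondrial ribosomal protein genes, which encode the separate ribosome of mitochondria, had 1.07, 1.40, 1.43, 0.584 and 0.534. For p-benzoquinone each of these 4 lists thus had a lower density than the cytosolic ribosomal protein genes (1.76), and no test of that difference was made. The genes of the 4 lists are longer, with median lengths of 14406, 20475, 26032 and 8618 bp, against 5025 bp. In p-benzoquinone the genes of the ribosomal protein length range had 1.71 and all genes 1.42, so 1.76 is not particular to ribosomal protein genes. The part of length in the difference was not tested.

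**Figure D3:**
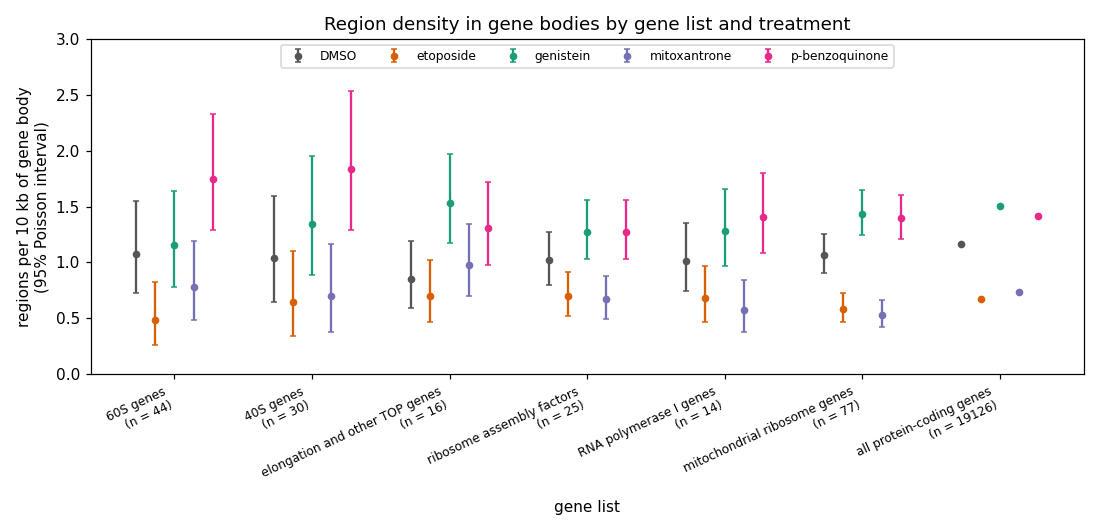
Regions per 10 kb of gene body (vertical axis) in 6 gene lists and in all protein-coding genes, with 1 point per treatment list and exact Poisson 95% intervals. Intervals of the 60S and 40S genes overlap in every treatment, and their p-benzoquinone points (1.75 and 1.84) are the highest plotted. The genes of the same length range (1.71 in p-benzoquinone) are not plotted.

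The second comparison sets each poison beside the vehicle. In bodies and flanks together, DMSO had 106 regions at ribosomal protein genes. Etoposide had 58, which after scaling to list size is 0.935 times the DMSO number (exact binomial 95% interval 0.667 to 1.30). Genistein had 125, or 0.885 times (0.678 to 1.16), and mitoxantrone 68, or 0.986 times (0.716 to 1.35). These 3 intervals spanned 1. For p-benzoquinone the 180 regions were 1.45 times the DMSO number (1.14 to 1.86). The genes of the same length range, treated in the same way, had ratios of 0.908, 0.789, 0.814 and 1.25 for etoposide, genistein, mitoxantrone and p-benzoquinone. Scaled to those genes in place of list size, the p-benzoquinone ratio at ribosomal protein genes was 1.16 (0.906 to 1.49), which spans 1, as does the ratio in flanks alone (1.49, 0.967 to 2.33). The p-benzoquinone excess also moved with region value: among regions with values under 3.7 the ratio was 0.954 (0.610 to 1.50), from 49 regions against 37 in DMSO. Mitoxantrone in flanks alone had a ratio of 0.615 (0.306 to 1.17). Doses and times differ between the poisons, so their ratios are given side by side and were not compared with each other.

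By gene, the scaled p-benzoquinone number was higher than the DMSO number in 43 of the 84 genes, lower in 32 and equal in 9, against 49.5% of all genes higher and 40.5% lower. Etoposide was higher in 30 and lower in 37 (all genes 38.8% and 47.7%), genistein higher in 36 and lower in 36 (40.3% and 48.8%), and mitoxantrone higher in 35 and lower in 33 (38.6% and 48.1%). These shares lie near those of all genes. Differences are named only for genes with at least 5 regions in the poison and DMSO lists together, which were 17 genes for p-benzoquinone, 12 for genistein, 5 for etoposide and 3 for mitoxantrone. For p-benzoquinone, RPL39L had 8 regions in p-benzoquinone and 2 in DMSO, a scaled difference of 4.84. RPL3 and RPS3 each had 5 and 1, a difference of 3.27. At the other end RPS24 had 7 and 7 (-1.02), RPL26L1 4 and 4 (-0.58) and RPL10A 3 and 3 (-0.44).

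The other poisons are set beside the same DMSO list, and with only 3 to 12 genes ranked, a gene at the ends of several rankings is no result. Among the ranked genes RPS10-NUDT3, with 14 DMSO regions, had the highest scaled difference under etoposide (11 regions, 4.79) and mitoxantrone (12 regions, 4.45), and one of the lowest under genistein (15 regions, -2.74). RPS24, with 7 DMSO regions, had the lowest among the ranked genes of each poison: 3 regions in etoposide (-1.88), 4 in genistein (-4.00) and 2 in mitoxantrone (-3.93). RPL26L1, with 4 in DMSO, had 2 in etoposide (-0.58) and 2 in genistein (-2.50). Of the 12 genes ranked for genistein, RPL27A, a 60S gene, and RPL5 had the highest difference, each with 4 regions against 1 in DMSO (2.00). RPL15, RPL28, RPL35 and RPS7 had 3 against 2 (0.25). Under etoposide RPL23A and RPL8 had 2 regions against 3 in DMSO (0.42), and under mitoxantrone RPL6 had 2 against 3 (0.07). With so few regions a gene, a difference of 1 or 2 regions decides the order.

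The third comparison asks whether the lists put regions at the same places of these genes. Sharing was partial: 34 of the 106 DMSO regions at ribosomal protein genes (32.1%, 23.3 to 41.8) overlapped a region of another list by at least 1 bp, against 25.1% over all gene windows. For etoposide the share was 21 of 58 (36.2%, 24.0 to 49.9) against 28.4%, and for genistein 43 of 125 (34.4%, 26.1 to 43.4) against 21.1%. For mitoxantrone it was 17 of 68 (25%, 15.3 to 37.0) against 25.5%, and for p-benzoquinone 46 of 180 (25.6%, 19.4 to 32.6) against 21.4%. The genistein interval alone lay above the share of all gene windows. When an overlap of at least 50% of the shorter region was asked for, the genistein share was 22.4% (15.4 to 30.7), against 15.3% over all gene windows.

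Regions shared by at least 3 lists numbered 20 of the 537, at 7 genes. The same share over all gene windows was not counted, so the places below are described singly and are not called particular to these genes. At RPL27, a 60S gene mutated in rare Diamond-Blackfan anaemia families (chromosome 17, 42998273 to 43002959), regions of all 4 poisons began at the same base, 42999387, with centres between 1183 and 1244 bp from the 5′ end of the gene. The etoposide region ended at 42999569 with a value of 2.05, genistein's at 42999648 with 47.12, mitoxantrone's at 42999525 with 36.96 and p-benzoquinone's at 42999577 with 8.69. DMSO had no region in RPL27 or its flanks. The genistein entry carried several values and its lower component was 15.42. At RPS24 the DMSO region from 78053234 to 78053372 (value 2.76), the etoposide region from 78053241 to 78053372 (8.14) and the mitoxantrone region from 78053250 to 78053431 (27.56) overlapped on chromosome 10. Their centres lay between 19440 and 19477 bp from the 5′ end of the gene. At RPL21, a 60S gene, the place was the downstream flank: on chromosome 13, genistein had 27258233 to 27258534 (25.75), mitoxantrone 27258264 to 27258419 (14.25) and p-benzoquinone 27258237 to 27258385 (12.08).

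RPL23A had a p-benzoquinone region from 28723291 to 28723478 on chromosome 17 (9.17), overlapped by a DMSO region from 28723354 to 28723398 (2.30) and an etoposide region from 28723396 to 28723503 (1.96). The DMSO and etoposide values are close to the lowest their lists kept. In RPL3L, the RPL3 paralog of muscle, a genistein region from 1953552 to 1953741 on chromosome 16 (12.20) overlapped an etoposide region from 1953735 to 1953889 (2.71) and a mitoxantrone region from 1953500 to 1953676 (11.35). In RPS10-NUDT3 the shared place lay within NUDT3: p-benzoquinone 34308776 to 34308881 (5.07), genistein 34308860 to 34309015 (17.27) and etoposide 34308865 to 34309045 (5.25). RPL37A, the last of the 7, had its shared regions at the start.

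**Figure D4:**
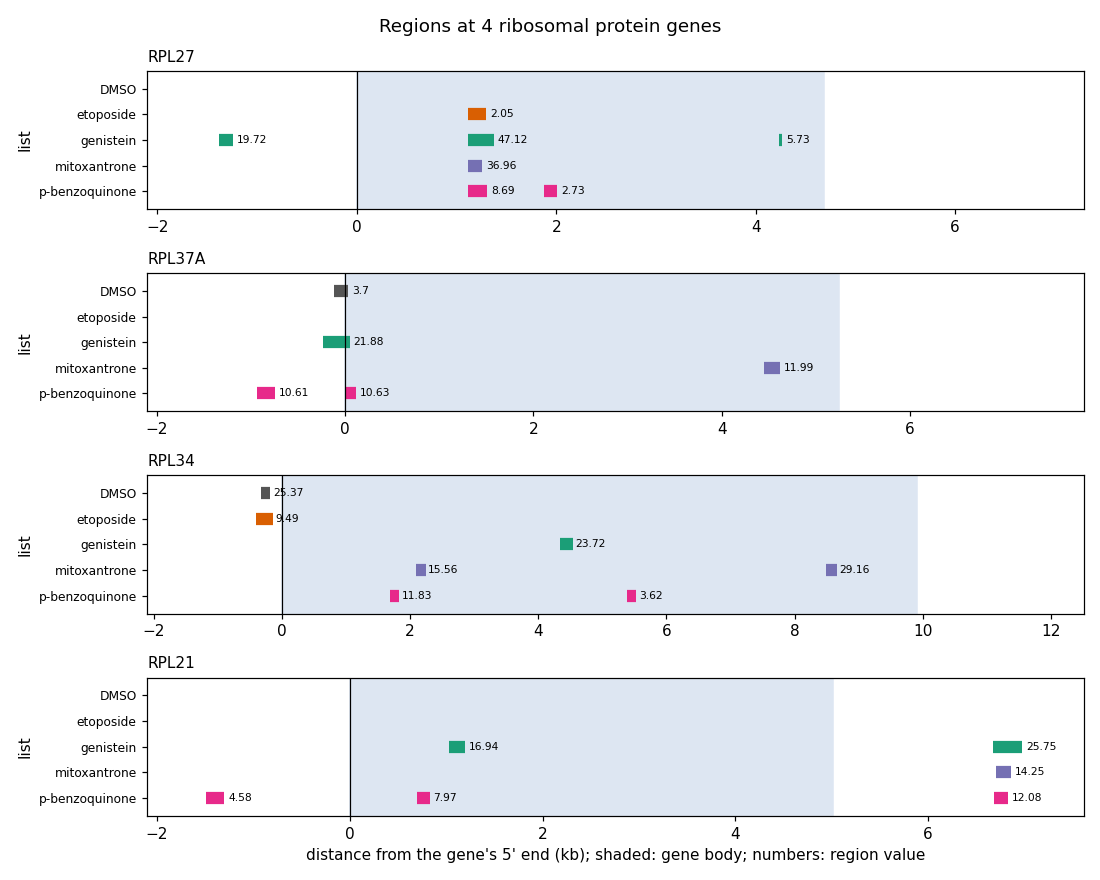
Regions of each list (rows, coloured bars) along RPL27, RPL37A, RPL34 and RPL21, by distance in kb from the 5′ end of the gene (vertical line); the gene body is shaded and the number beside a bar is its deposited value. The 4 poison bars in RPL27 start at one position, and the bars at the RPL37A and RPL34 starts are those of the printed promoters.

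Around the start, taken as the 300 bases from 250 before to 50 from any start that RefSeq lists for the gene, regions were few. In DMSO 6 of the 65 genes with a listed start had one (9.23%, against 5.91% of all 15101 genes), in etoposide 2 (3.08%, against 3.04%), in genistein 4 (6.15%, against 5.58%), in mitoxantrone 1 (1.54%, against 2.77%) and in p-benzoquinone 2 (3.08%, 0.375 to 10.7, against 8.91%). Each interval held the share of all genes. At RPL37A 3 lists met: the DMSO region ran from 216498723 to 216498878 (3.7), the genistein region from 216498613 to 216498893 (21.88), and the p-benzoquinone region from 216498838 to 216498958 (10.63). The capitals of the RPL37A sequence above end at the last printed base, so the shared stretch takes in the TOP tract. At RPL34 the DMSO region from 108620252 to 108620392 (25.37) lay inside the etoposide region from 108620170 to 108620439 (9.49), upstream of the start. In the other 10 genes 1 list had a region there: DMSO in RPL22, RPL26, RPL27A and RPL4, etoposide in RPS14, genistein in RPL3, RPL6 and RPL7L1, mitoxantrone in RPS7 and p-benzoquinone in RPL32.

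Along the genes, the 5 lists together had 3.91 regions per 10 kb between 1 and 2 kb upstream (all genes 5.28), 4.53 in the kb before the start (5.20), 5.65 in the first kb of the body (4.81) and 6.27 in the second (5.74). The rest of the body had 5.43 (5.50), the first kb downstream 6.77 (5.44) and the next 5.23 (5.36). For these sums, where a place shared by lists counts once for each list, the intervals of the ribosomal protein genes included the value of all genes in each of the 7 bins. In p-benzoquinone alone, the intervals of 2 bins lay wholly above the value of all genes. These were the rest of the body, 1.92 (1.46 to 2.47) against 1.41, and the first kb downstream, 2.77 (1.64 to 4.38) against 1.62. The first kb of the body, 2.67 (1.55 to 4.27) against 1.61, was also higher, with an interval that held the value of all genes. So was the second kb downstream, 2.00 (1.06 to 3.42) against 1.62. The remaining p-benzoquinone bins were lower than all genes. Each list was also looked at on the upstream and the downstream side as a whole. Upstream, mitoxantrone had 2 regions from its 1 library, 0.156 per 10 kb (0.0189 to 0.564), against 0.608 in all genes. On the downstream side it had 10, 0.769 per 10 kb against 0.663. For p-benzoquinone the upstream side had 19 regions, 1.48 per 10 kb against 1.62, and the downstream side 31, 2.38 per 10 kb (1.62 to 3.38) against 1.62. In DMSO, etoposide and genistein the interval of either side held the value of all genes. Upstream these lists had 1.09, 0.391 and 1.09 per 10 kb, against 1.12, 0.634 and 1.25. Downstream they had 0.846, 0.538 and 1.46, against 1.16, 0.643 and 1.31.

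**Figure D5:**
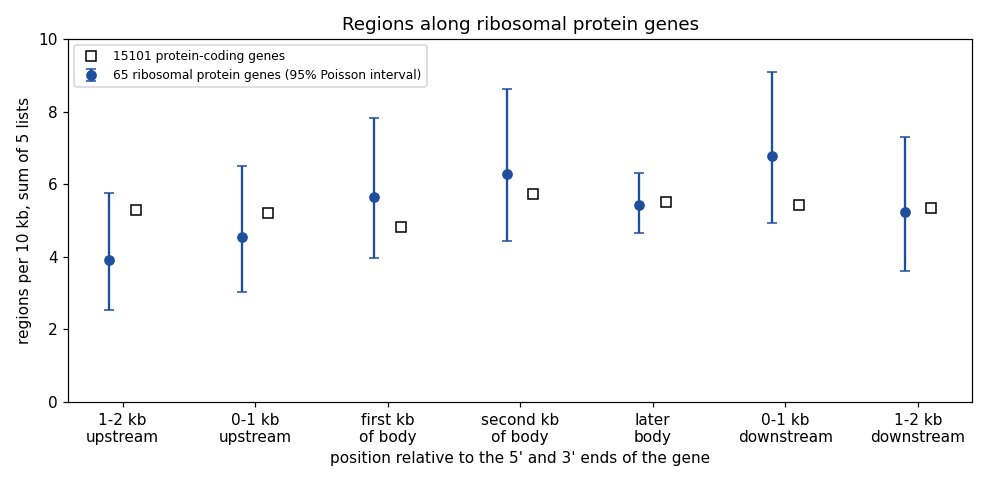
Regions per 10 kb (sum of the 5 lists) in 7 bins from 2 kb upstream of the start to 2 kb downstream of the gene end. Circles with exact Poisson 95% intervals are the 65 ribosomal protein genes with a listed start and squares the 15101 protein-coding genes; each interval spans its square, and the circles run from 3.91 furthest upstream to 6.77 in the first kb downstream.

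Flank densities were near those of all genes as well. DMSO had 35 flank regions, 1.05 per 10 kb against 1.13, a ratio of 0.931 (0.649 to 1.30). Etoposide had 19 (0.572 against 0.622), genistein 43 (1.30 against 1.27), mitoxantrone 14 (0.422 against 0.627, a ratio of 0.672, 0.368 to 1.13) and p-benzoquinone 61 (1.84 against 1.59, a ratio of 1.16, 0.884 to 1.48). All 5 intervals spanned 1. With flank bases inside another protein-coding gene left out, the mitoxantrone ratio was 0.468 (0.188 to 0.965), and with values of at least 4 the p-benzoquinone ratio was 1.41 (1.03 to 1.87). A flank region was present in 31 of the 84 genes in DMSO (36.9%, against 36.2% of all genes), 44 in p-benzoquinone (52.4%, against 46.7%), 38 in genistein (45.2%, against 39.6%), 18 in etoposide (21.4%, against 22.1%) and 12 in mitoxantrone (14.3%, against 22.2%). Of 173 flank regions counted by gene, 48 lay inside another protein-coding gene.

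Single genes differed in where their regions lay. RPL41, which encodes the smallest ribosomal protein and is 1335 bp long, had no body region but 6 flank regions: 2 each in genistein and p-benzoquinone and 1 each in DMSO and mitoxantrone. RPL8, a 60S protein near the peptidyl transferase centre, had no body region either, and 3 flank regions in DMSO and 2 in etoposide. RPLP1, a protein of the acidic stalk, had 1 flank region each in DMSO and etoposide and 2 each in genistein and p-benzoquinone. RPL10A had 3 in p-benzoquinone and 1 each in DMSO and genistein, and RPL22 had 2 each in p-benzoquinone and DMSO and 1 in genistein. RPL23A had 5 flank regions over the lists.

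Region values were compared within a list only. Regions at ribosomal protein genes ranged in DMSO from 1.84 to 43.3 with a median of 5.74 (6.09 over the whole list), in etoposide from 1.82 to 38.1 with a median of 6.10 (7.79) and in genistein from 3.72 to 121.04 with a median of 14.9 (12.9). In mitoxantrone they ranged from 4.21 to 103.11 with a median of 13.0 (13.3) and in p-benzoquinone from 1.82 to 33.3 with a median of 5.78 (5). The ribosomal protein median was thus above that of its list in genistein and p-benzoquinone, and below it in the others. The highest values given next are those among regions at ribosomal protein genes, not of the whole lists. The highest genistein value, 121.04, was in RPL6 (chromosome 12, 112411362 to 112411522), over a start site that RefSeq lists inside the gene. That entry carried several values and its lower component was 36.59. The second highest mitoxantrone value at ribosomal protein genes was in RPL6 too, 66.79, at another place (112406085 to 112406285). Genistein's next values were 103.40 in RPL31, where the TBC1D8 gene overlaps, 91.54 in RPS3, 72.10 in RPS19BP1 and 60 beside RPL22. RPL22, a 60S protein gene lost or mutated in several cancers, also had the highest p-benzoquinone value, 33.28, in its flank, followed by RPS3 (20.04), the flank of RPLP0 (19.55), RPL22 again (18.61) and RPS7 (18.36).

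In DMSO the highest values at ribosomal protein genes were 43.32 and 32.83 in RPL28, the first of them where UBE2S overlaps, and 38.54 at RPL35A, where DRC9 overlaps. Next came 26.37 at RPS15A and the 25.37 of the RPL34 promoter. In etoposide the highest were 38.06 in RPL14, 33.64 in RPS14, 28.19 beside RPL8, 23.44 in RPS10-NUDT3 and 18.00 beside RPL24, inside another protein-coding gene. In mitoxantrone they were 103.11 beside RPS25, within CENATAC, the 66.79 of RPL6, 53.82 and 47.34 in RPS10-NUDT3, and 44.09 in RPL22. Among ribosomal protein genes, the highest value was thus at a different gene in each list, RPL28, RPL14, RPL6, RPS25 or RPL22. RPL6, RPS3, RPL22 and RPS10-NUDT3 were among the 5 highest of these values in more than 1 list.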

How the data were processed

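TOP2A-bound DNA of K562 was sequenced, and the authors deposited 1 region list per treatment, pooled over libraries. The submitters' processing notes name hg38, SAMtools 0.1.19 and Bowtie2 2.1.0. How regions were called is not given in the sources used here. Each region has a score that the authors deposited without a unit. The mitoxantrone list, as deposited, adds the input signal, a log2 value over input and p-values; its p-values and 1 further column were not used. One p-benzoquinone library was grouped as unamplified by its title, although its description says amplified.

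Overlapping entries of a list were joined, and a region was assigned to a gene by its centre. Genes, strands and start sites came from RefSeq tables of GRCh38.p14; exons and introns were not used here. The start table held 65 of the 84 genes. Densities are regions per 10 kb of body or of 2 kb flanks, with exact Poisson intervals; shares have exact binomial (Clopper-Pearson) intervals, all at 95%. Reads from PCR that carry no molecular identifiers are not separate molecules, so intervals cover counting error only. Poison counts were scaled to list size; a scaled difference is the scaled poison number minus the DMSO number. The genes, lists and rules were chosen with earlier results of these data known. Named genes are the 8 with most body and the 8 with most flank regions, the 5 densest with at least 5 regions, those with a start region in at least 2 lists or a region shared by at least 3, those without a region, the 3 highest and 3 lowest scaled differences per poison among genes with at least 5 regions (ties kept), the 5 highest values per list, and RPS19, RPL5, RPL11, RPL23 and RPS14. A few genes chosen this way are left unreported here. Genes with a region in every list, with a region at the start in 1 list, and of the groups described were added after their values were seen. The tools were scipy 1.17.1, pandas 2.3.3, numpy 2.4.6 and matplotlib 3.10.9 under Python 3.11.15, and the density step was tested on simulated data.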

Additional observations from a re-analysis of the deposited data

How the results depend on the processing

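Of 131 alternative values, 122 moved by less than the counting interval and 9 by more. With genes of the same length range as background, the body ratio was 0.992 for genistein and 1.03 for p-benzoquinone. Among regions with values under 3.7, a limit chosen after seeing the data, it was 1.20 for etoposide, the p-benzoquinone flank ratio was 0.822, and the p-benzoquinone to DMSO ratio was 0.954; with values of at least 4 that ratio was 1.80, on the same side of 1 as reported. Asking for an overlap of 50% of the shorter region gave shared percentages of 22.4 for genistein and 17.2 for p-benzoquinone, and values of at least 4 gave 26.0 for genistein; over all gene windows these were 15.3, 15.4 and 16.5. Mitoxantrone over DMSO was 0.615 in flanks alone. Leaving out RPS10-NUDT3, keeping core genes only, counting any overlap, other flank widths and covered bases moved no value by more than its interval, but under the first 3 the genistein body interval spanned 1. Scaled to genes of the same length range, the p-benzoquinone to DMSO ratio was 1.16 with an interval that spanned 1. No paired analysis was possible because the pooled lists do not tell which library a region came from, and leaving out a library was not run for the same reason. With 14 to 120 regions per list and part, small differences in density could not be detected, as the width of each interval shows.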

Other observations

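Ribosomal protein genes have many processed pseudogenes, copies of their transcripts scattered through the genome, which resemble them in sequence. RefSeq names 1782 pseudogenes for 74 of the 84 genes, among them 134 for RPL21, 94 for RPL23A, 78 for RPL7A and 66 for RPSA. Their bodies held 96 regions in DMSO (0.663 per 10 kb, 0.537 to 0.810, against 0.604 for all 14324 pseudogenes), 66 in etoposide (0.456 against 0.358), 123 in genistein (0.850 against 0.719), 59 in mitoxantrone (0.408 against 0.363) and 142 in p-benzoquinone (0.981 against 0.783). The p-benzoquinone interval (0.826 to 1.16) alone lay above the value of all pseudogenes. In each list the density in these pseudogenes was below that of the ribosomal protein genes themselves. The 41 core genes with more pseudogenes than the median of 12.5 had 1.35 DMSO regions per 10 kb (0.947 to 1.85), and the 33 others 0.668 (0.356 to 1.14); in p-benzoquinone the values were 1.78 and 1.80. The part of ambiguous read placement in these numbers was not tested.

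The shared first base at RPL27 had few counterparts. Of 92 overlapping pairs of regions from different lists at ribosomal protein genes, 9 began at the same base (9.78%, 4.57 to 17.8), against 3502 of 93946 pairs over all gene windows (3.73%). The 4 poison regions of RPL27 make up 6 of the 9 pairs, and they were seen before this count was made.

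In the mitoxantrone list, the 1 list with an input signal, 14 of the 68 regions at ribosomal protein genes had an input of 0 (20.6%, 11.7 to 32.1), against 22% of the whole list. In the other 54 the median log2 value over input was 4.76, against 4.82 over the list.

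Among core genes, the 27 with a small nucleolar RNA gene inside had 16 body regions in DMSO, 28 in p-benzoquinone, 26 in genistein, 12 in etoposide and 10 in mitoxantrone. The 47 without had 34, 56, 32, 14 and 25. Per 10 kb these were 1.54 with and 1.06 without for genistein, and 0.593 and 0.831 for mitoxantrone, with intervals that overlap.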
